A study of Mus musculus with 7 samples.

Results

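The genes described here encode the mitochondrial respiratory chain and ATP synthase. They were taken by name: symbols in the GENCODE M21 mouse annotation that begin with Nduf, Uqcr, Cox4, Cox5, Cox6, Cox7, Cox8, Atp5, mt-Nd, mt-Co, mt-Cyt or mt-Atp, together with Sdha, Sdhb, Sdhc, Sdhd, Cyc1 and Cycs, leaving out names that end in -ps. This gave 112 of the 43346 genes in the files. Of these, 13 lie on mitochondrial DNA and 99 on nuclear chromosomes. The nuclear genes were 92 autosomal coding genes, 3 X-linked coding genes (Ndufa1, Ndufb11 and Cox7b) and 4 processed pseudogenes (Cox6c2, Ndufa11b, Ndufb4c and Ndufs6b). By complex, 44 of the 92 autosomal coding genes carried Nduf names, 8 of them assembly factors (Ndufaf), and 4 belonged to complex II, 9 to complex III, 17 to complex IV, 17 to complex V, and 1 was Cycs.

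The respiratory chain passes electrons through complexes I to IV in the inner mitochondrial membrane and pumps protons, and complex V, the ATP synthase, uses the proton gradient to make ATP. Complexes I, III, IV and V each combine subunits encoded in the nucleus with subunits encoded on mitochondrial DNA, which is inherited from the mother, whereas all subunits of complex II are nuclear. Growth plate cartilage has no blood vessels, and chondrocytes are known for making much of their ATP by glycolysis.

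The samples were tibial growth plates, proximal and distal, of 7 male F1 mice (C57BL/6J × CAST/EiJ, 21 days old, mice 1, 2, 3, 4, 5, 7 and 8), all of 1 condition with no treatment. Each mouse gave 1 library of total RNA depleted of cytoplasmic and mitochondrial rRNA. Each gene has 1 estimated count for its B6 allele (C57BL/6J), 1 for its CAST allele (CAST/EiJ) and their total, and the totals of the mice ran from 14098019 to 37849667. The comparison that the design allows is that of the alleles within the same 7 animals, and levels could only be described across mice.

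The labelled tissue carried its markers. Levels in CPM (counts scaled to a common library total) summed over 10 chondrocyte markers ran from 61615 in mouse 8 to 98116 in mouse 4, and all were detected in every mouse. Other cell types were present too. Summed levels ran from 35931 to 65258 CPM for 5 osteoblast markers and 8359 to 20289 CPM for 7 erythroid markers. They were 4914 to 11224 CPM for 12 fast skeletal muscle markers, 4133 to 6005 CPM for 4 osteoclast markers and 1335 to 2887 CPM for 6 neutrophil markers. The osteoblast sum was mostly Col1a1 (mean 46555 CPM), with Bglap next at 1626 CPM. The chondrocyte sum was mostly Col2a1 (mean 53230 CPM), with Acan next at 7994 CPM. The 4 brown fat markers summed to 10.7 to 22.3 CPM and do not show this cell type. Only 2 of them were detected in every mouse, and most of the sum was Dio2 (mean 11.3 CPM), with Ucp1 at 0.289 CPM. In such bulk tissue, fewer cells of a type and less RNA per cell cannot be told apart.

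Mitochondrial genes varied more between mice than nuclear ones. The 13 mitochondrial genes held 0.365% ± 0.0961 (SD, n = 7) of all counts, with a lowest share of 0.220% in mouse 4, a median of 0.355% and a highest share of 0.487% in mouse 1. The 99 nuclear genes held 0.550% ± 0.0392 of counts, from 0.495% in mouse 4 through a median of 0.5684% to 0.593% in mouse 8. The ratio of mitochondrial to nuclear counts therefore ran from 0.444 in mouse 4 to 0.941 in mouse 3. Mouse 4 had the lowest level of 11 of the 13 mitochondrial genes, and mouse 3 or mouse 1 the highest level of 12. The coefficient of variation (CV, the SD over mice as a percentage of the mean) was 16.7% to 29.9% for the mitochondrial genes, with a median of 24.2%. For the 90 autosomal members that had 10 or more counts in each mouse the median CV was 10.2%, against 14.4% for all 13094 autosomal coding genes above the same floor. These members had more counts, with a median of 1049 per mouse against 418, and CVs at like counts were not compared.

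**Figure D1:**
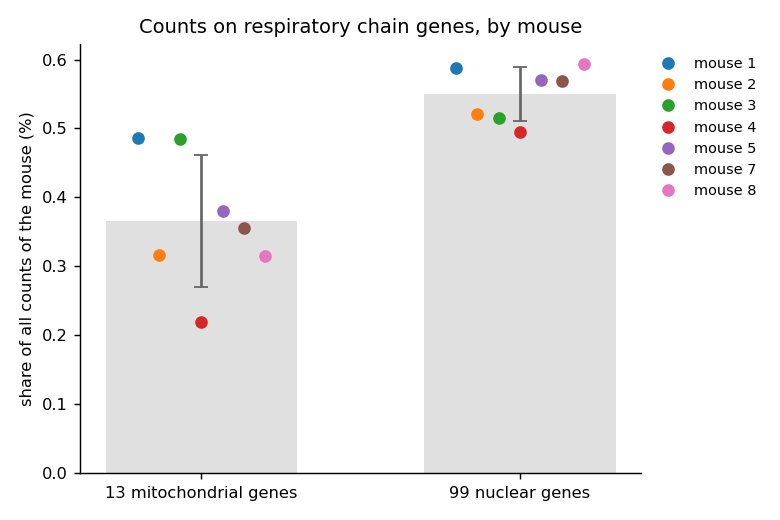
Share of all counts (%, y axis) on the 13 mitochondrial and the 99 nuclear respiratory chain genes, with 1 point per mouse. Bars give the mean and error bars the SD over 7 mice. Mitochondrial shares spread from 0.220% in mouse 4 to 0.487% in mouse 1, while nuclear shares stay between 0.495% and 0.593%.

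Across the 7 mice, the level of nuclear members and that of mitochondrial members showed no relation that the test could detect (Pearson's r = 0.34, exact permutation p = 0.429; Spearman's rho = 0.25, p = 0.595). Both are shares of the same library. The mitochondrial share was lower where the small nuclear-encoded RNAs Rn7s1, Rn7s2 and Rn7sk, which held 15.5% to 23.8% of counts, were higher (r = -0.77, exact permutation p = 0.0442, adjusted p = 0.0590 over 4 relations; rho = -0.86, p = 0.0238, adjusted p = 0.0476). Without mice 1 and 8, the farthest from the median Rn7s share, r was -0.70 over the 5 mice left (exact permutation p = 0.183). The part of these RNAs in the mitochondrial shares was not tested beyond this. As a share of protein-coding counts alone, mitochondrial genes held 0.491% ± 0.115, still lowest in mouse 4 (0.308%).

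Among the mitochondrial genes, those of complex IV had the highest levels. mt-Co1, the catalytic subunit of cytochrome c oxidase (ENSMUSG00000064351, GRCm38 chrM:5328-6872), held 47.1% ± 2.07 of all mitochondrial member counts. Its level per length, in CPM per kb of exon, was 1124 ± 329 (SD, n = 7), followed by mt-Co3 at 522 ± 125 and mt-Co2 at 317 ± 91.8. The level of mt-Co1 was lowest in mouse 4, at 948 CPM, and highest in mouse 1, at 2437 CPM, with a median of 1692 CPM.

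The ATP synthase subunits mt-Atp8 and mt-Atp6 had 264 ± 63.9 and 180 ± 41.9 CPM per kb, and mt-Cytb, the mitochondrial subunit of complex III, 253 ± 60.8. The complex I subunits spread from mt-Nd1 at 246 ± 59.6 through mt-Nd4 at 146 ± 43.7, mt-Nd2 at 123 ± 33.3, mt-Nd5 at 99.6 ± 26.9 and mt-Nd3 at 91.5 ± 15.2 to mt-Nd6 at 64.9 ± 13.3 and mt-Nd4l at 49.6 ± 12.5. mt-Nd6 is the only one of the 13 genes encoded on the other strand of mitochondrial DNA. Within complex I, the steps from mt-Nd1 to mt-Nd4, from mt-Nd3 to mt-Nd6 and from mt-Nd6 to mt-Nd4l were larger than the SD of either gene, and the other neighbours in this order differed by less. As given next, reads of some of these genes were divided with nuclear copies, and this order did not hold when the copies were counted in.

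Nearly all mitochondrial counts were on the B6 allele. The B6 share over the 13 genes was 99.98% or more in each mouse, and CAST counts on all 13 summed to between 3.94 and 12.01 per mouse. mt-Co1 had 19923 to 74556 B6 counts and 1.04 to 7.09 CAST counts.

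Of the 13 mitochondrial genes, 7 had totals that were not whole numbers in any mouse, as can occur where the authors' method divides reads between genes. These were the 7 genes with an annotated near-identical copy in a block on chromosome 1 (GRCm38 chr1:24611535-24616197, minus strand), where mitochondrial DNA has been inserted into the nuclear genome. The copies were Gm29216 (of mt-Co1), Gm28661 (mt-Co2), Gm10925 (mt-Atp6), Gm28437 (mt-Co3), Gm28438 (mt-Nd3), Gm10222 (mt-Nd4l) and Gm28439 (mt-Nd4). Along their whole length, 5 of them had the letters of the mitochondrial gene, whereas Gm28438 differed at 1 of 345 bases and Gm29216 at 6 of 492. The first 75 bases of the mt-Co3 coding sequence are shown because a read of this length from chrM:8607-8681 (plus strand) and one from chr1:24613897-24613971 (minus strand) would read the same.
mt-Co3 and Gm28437: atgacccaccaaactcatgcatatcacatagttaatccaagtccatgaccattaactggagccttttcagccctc

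The division of reads differed among these pairs. Gm28437 had 11229 ± 4402 counts beside 10878 ± 4260 for mt-Co3, or 50.8% of the pair, with 50.7% to 50.8% in each mouse. Like Gm28437, which shares 99.9% of the 75-base windows of mt-Co3, the copies that share 97.8% to 99.5% of those of their mitochondrial gene took about as much as the gene itself: 52.7% for Gm28661, 52.4% for Gm10925, 53.8% for Gm28438 and 50.5% for Gm10222. Gm29216, which shares 27.5% of the 75-base windows of mt-Co1, took 4.44% of its pair, and Gm28439, which shares 61.5% of those of mt-Nd4, took 1.05%. These copies lie on an autosome, yet 99.96% or more of the counts of each were on the B6 allele, as for the mitochondrial genes. Reads of each pair cannot be told apart where the letters are the same. With the copies added, an alternative chosen after seeing the data, mitochondrial genes held 0.459% ± 0.118 of counts instead of 0.365%, and mouse 4 was again lowest, at 0.277%.

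Adding the chromosome 1 copies, also chosen after seeing the data, moved the level per kb of 5 genes by over 1.5 times. mt-Co3 then had 1061.5 ± 254 CPM per kb, mt-Co2 670 ± 197 and mt-Atp6 379 ± 88.0, so that mt-Co1 (1177 ± 348), mt-Co3 and mt-Co2 were again the highest and mt-Atp6 stood above mt-Atp8, mt-Cytb and mt-Nd1. mt-Nd3 had 198 ± 31.9 and came next to mt-Nd1, and mt-Nd4l had 99.9 ± 23.9, level with mt-Nd5, so that mt-Nd6 was then the lowest of the complex I genes.

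The other 6 mitochondrial genes had whole totals in all mice. mt-Cytb, mt-Nd1, mt-Atp8 and mt-Nd6 shared no 75-base window with another annotated transcript, and the nuclear genes that shared windows with mt-Nd2 and mt-Nd5 had no counts.

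**Figure D2:**
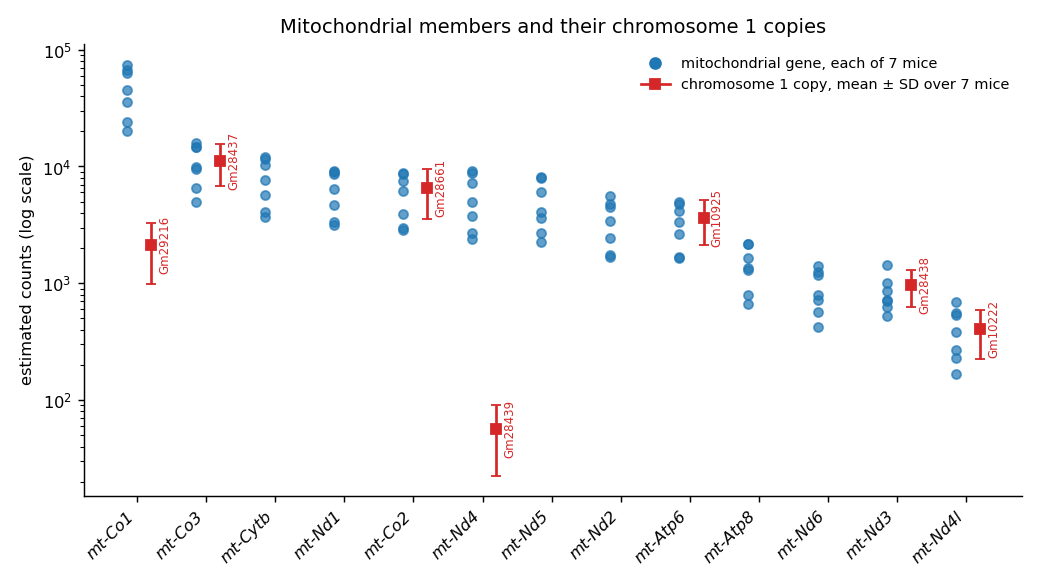
Estimated counts (log scale, y axis) of each mitochondrial member in each of 7 mice (circles) and of its chromosome 1 copy (squares, mean ± SD over 7 mice). The copies of mt-Co3, mt-Co2, mt-Atp6, mt-Nd3 and mt-Nd4l lie as high as the mitochondrial genes themselves, while Gm29216 and Gm28439 lie far below mt-Co1 and mt-Nd4.

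Most nuclear members had lower levels per length than the mitochondrial ones. The 36 tested autosomal Nduf genes other than assembly factors, mostly complex I subunits, had a median of 20.1 CPM per kb of exon, from Ndufab1, the acyl carrier protein, at 2.38 to Ndufb9 at 62.1 ± 5.64 (SD, n = 7). By name they include Ndufa4, whose product is now placed in complex IV, and its paralogue Ndufa4l2. The 8 Ndufaf genes, whose products help to assemble complex I and are not part of it, had a median of 1.94 CPM per kb, from 0.504 ± 0.111 for Ndufaf2 to 6.01 for Ndufaf3. In complex II, levels ran from 18.4 ± 1.69 CPM per kb for Sdhc to 55.2 ± 6.28 for Sdhd, which are both membrane anchors of succinate dehydrogenase.

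In complex III, levels ran from 16.5 ± 1.25 CPM per kb for Uqcrq to 82.8 ± 9.13 for Uqcr11, and Cyc1, which encodes cytochrome c1, had 30.7 ± 2.91. In complex IV, the lowest tested gene was Cox6b2 at 1.72 ± 0.554 CPM per kb and the highest Cox8a at 142 ± 17.6. In complex V, Atp5a1, the alpha subunit of the catalytic head, had 189 ± 17.5 CPM per kb and Atp5s, a coupling factor, 0.469 ± 0.130. Cycs, the electron carrier between complexes III and IV, had 6.35 ± 1.52.

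As deposited and by exon length, Atp5a1, the highest nuclear member, had a lower level per kb than mt-Co1, mt-Co2, mt-Co3, mt-Cytb, mt-Nd1 and mt-Atp8. It differed from mt-Atp6 by less than the SD of either. With the chromosome 1 copies added, mt-Atp6 too was higher than Atp5a1, and mt-Nd3 differed from it by less than its SD. These orders depend on the length used. With the length of the longest coding transcript in place of all exons, Sdhb was highest in complex II (65.6 ± 5.86 CPM per kb). Uqcrh was highest in complex III (136 ± 14.4), Cox4i1 in complex IV (241 ± 22.3) and Atp5b in complex V (393 ± 32.3). Ndufb9 stayed highest of the Nduf genes (90.9 ± 8.26). By this length Atp5b was the highest nuclear member. As deposited, it stood above mt-Atp8, mt-Cytb and mt-Nd1, above mt-Co2 by less than the SD of mt-Co2, and below mt-Co1 and mt-Co3.

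**Figure D3:**
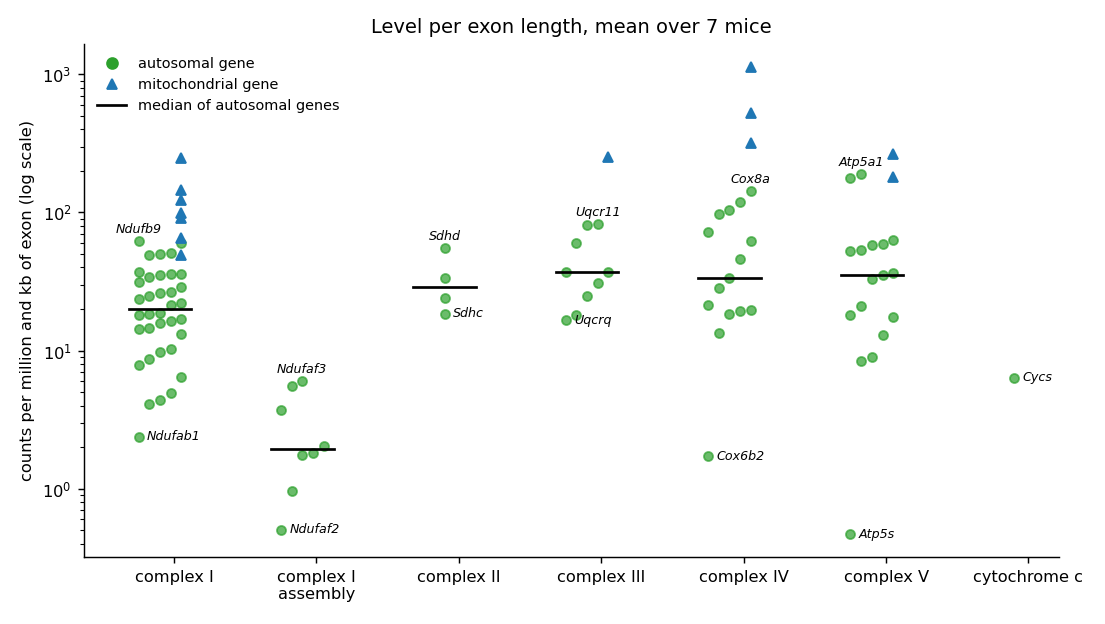
Mean level over 7 mice in CPM per kb of exon (log scale, y axis) of the autosomal members with 10 or more counts in each mouse (circles) and of the mitochondrial members (triangles), by complex, with Ndufa4 and Ndufa4l2 placed by name in complex I. Lines mark the median of the autosomal genes, and the highest and lowest gene of each group is named. Complex I assembly factors lie below most subunits, and mt-Co1 lies highest.

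Several subunits exist as pairs of genes that differ by tissue. Of the complex IV pairs, the widely expressed gene was the higher in each case. Cox4i1 had 119 ± 11.0 CPM per kb and Cox4i2, known from lung and as a gene induced by low oxygen, 28.3 ± 5.05. Cox6a1 had 97.7 ± 10.1 against 18.3 ± 9.24 for its heart and skeletal muscle form Cox6a2. Cox7a2 had 61.9 ± 3.71 and the related Cox7a2l 72.5 ± 8.79, against 13.5 ± 7.94 for the muscle form Cox7a1. Cox8a, at 142 ± 17.6, stood above the muscle form Cox8b at 19.7 ± 9.78.

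Forms known from testis had low levels. Cox6b2 had 1.91 ± 0.614 CPM, against 74.1 ± 6.18 for Cox6b1, and Cox8c had 0.429 ± 0.535 counts per mouse. Cox7b2 had no count in any mouse, which does not exclude a level too low to be counted. The 3 genes of ATP synthase subunit c, which encode the same mature protein, had like levels in CPM: 85.6 ± 6.42 for Atp5g1, 90.1 for Atp5g2 (CV 15.5%) and 77.2 ± 6.45 for Atp5g3. Ndufa4l2, a target of the hypoxia-induced factor HIF1, had 50.5 ± 13.1 CPM per kb, beside 36.8 ± 5.59 for Ndufa4. With the length of the longest coding transcript the order was reversed, at 59.2 ± 15.3 for Ndufa4l2 and 83.3 ± 12.7 for Ndufa4.

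The muscle forms of complex IV varied most among mice. The CV was 50.5% for Cox6a2, 58.8% for Cox7a1 and 49.6% for Cox8b, against 10.3% for Cox6a1 and 5.99% for Cox7a2. Cox6a2 had 6.76 CPM in mouse 4, a median of 10.5 CPM and 24.8 CPM in mouse 1. Mouse 1 was also highest for Cox7a1, at 15.6 CPM, and for Cox8b, at 14.1 CPM. Their sum, 14.2 CPM in mouse 4 to 54.6 CPM in mouse 1, went with the sum of 12 fast skeletal muscle markers (r = 0.95, exact permutation p = 0.00437, adjusted p = 0.0155 over 4 relations; rho = 0.86, p = 0.0238, adjusted p = 0.0476). All 12 markers were detected in every mouse. Without mice 1 and 8, r was 0.82 (exact permutation p = 0.0750), past the threshold no more.

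Ndufa4l2 and Cox4i2 were both highest in mouse 4. Ndufa4l2 had 41.2 CPM in mouse 7, a median of 54.2 CPM and 83.6 CPM in mouse 4. Cox4i2 ran from 16.9 CPM in mouse 1 to 29.7 CPM in mouse 4. Their sum went with that of 7 other hypoxia response genes by Pearson's r (0.94, exact permutation p = 0.00774, adjusted p = 0.0155) but not by rank (rho = 0.71, p = 0.0881, adjusted p = 0.117). The sum of those 7 genes was mostly Ldha, with a mean of 701 CPM, and the next was Slc2a1 at 45.7 CPM. Without mice 4 and 7, r was 0.63 (exact permutation p = 0.258), and the relation no longer passed. Mouse 4 also had the highest sum of chondrocyte markers and the lowest of muscle markers. Whether these values are linked was not tested.

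**Figure D4:**
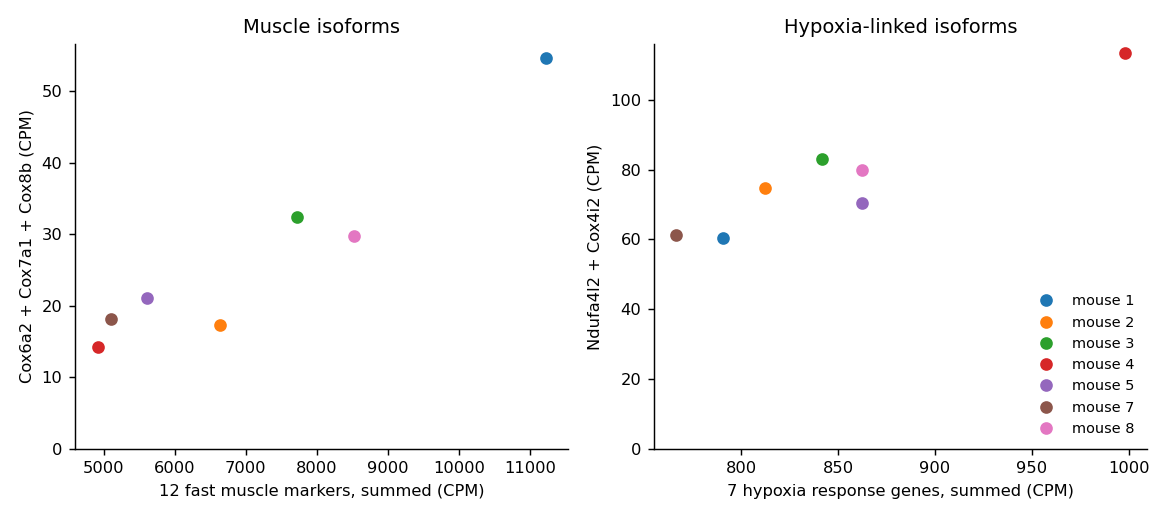
Left, summed level of Cox6a2, Cox7a1 and Cox8b (CPM, y axis) against that of 12 fast muscle markers (CPM, x axis); right, Ndufa4l2 plus Cox4i2 against 7 hypoxia response genes, both with 1 point per mouse. Mouse 1 stands far right and high on the left, at 54.6 CPM, and mouse 4 does so on the right.

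Allele differences among the autosomal members were mostly small. Of the 92 autosomal coding members, 90 were tested, and each of these reached 10 counts in all 7 mice; Cox7b2 and Cox8c were not tested. Calls were made at an adjusted p below 0.20 (edgeR's likelihood-ratio test, Benjamini-Hochberg over all 20239 genes tested). The study's allele test used the same value, but the genes over which it adjusted are not stated. Of the 90, 20 differed between alleles, or 22.2%, against 33.9% of the 13094 autosomal coding genes that also reached 10 counts in all mice. CAST was higher for 11 (17.6% of all such genes) and B6 for 9 (16.3%). The median size of the log2 fold change (CAST over B6) was 0.11 for the members and 0.16 for all such genes, and 1 member, Cycs, was past 1 in size. Both comparisons include 8 members whose alleles had the same count in every mouse and so could not be called. Such genes were 8.89% of the 90 members and 2.15% of all such coding genes. The 20 calls were thus made among 82 members. With the mouse as a replicate block in the model, 48 of the 90 members were called (29 CAST, 19 B6), against 6554 of the 13094 such genes (50.1%). The share of members called was thus not below that of all such genes with the block.

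In 14 of the 20 called members, all 7 mice had the difference in the same direction, 8 toward CAST and 6 toward B6. These 14 are 15.6% of the members tested, against 21.5% of the background genes, and 70.0% of the members called, against 63.4%. A difference of the same sign in 7 mice gives p = 0.0156 when the signs are permuted over mice (exact, two-sided), the smallest p that 7 mice can give.

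By complex, calls were made for 7 of 36 Nduf genes other than assembly factors (5 CAST, 2 B6), 2 of 8 assembly factors, 1 of 4 genes of complex II, 1 of 9 of complex III, 3 of 15 tested of complex IV (2 CAST, 1 B6) and 5 of 17 of complex V (1 CAST, 4 B6), and for Cycs.

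Cycs, which encodes the somatic form of cytochrome c (ENSMUSG00000063694, GRCm38 chr6:50562563-50566538, minus strand), had the largest difference among them. Its B6 counts were 61.4 to 159 with a median of 115, and its CAST counts 207 to 724 with a median of 514. The allele ranges did not overlap, and the log2 fold change was 2.01 (SE 0.18, adjusted p = 3.53e-27).

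The total of Cycs was not whole in any mouse, and 23.9% of its 75-base windows lie also in Gm10053, a coding gene on chromosome 19 that matches it at 945 of 946 bases. Gm10053 had 219 counts on each allele, with no difference in any mouse. Smaller parts of Cycs match Gm10108 and Gm13772, which had 73.7 and 79.8 CAST counts and almost no B6 counts (0.187 and 7.46e-06). With these 3 copies added, an alternative chosen after seeing the data, B6 had 328 ± 127.7 and CAST 836 ± 364 counts, a mean log2 ratio of 1.31 ± 0.192 (SD, n = 7), CAST higher in 7 of 7 mice. How the reads were divided among these genes was not tested.

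Among complex I subunits, Ndufb8 (444 to 1167 B6 and 607 to 1596 CAST counts, log2 fold change 0.39, SE 0.09, adjusted p = 0.000216) and Ndufb10 (0.27, SE 0.09, adjusted p = 0.00872) were higher on CAST. Both are accessory subunits of the membrane arm. The ranges of the alleles overlapped across mice of unlike depth, but in each mouse CAST was the higher, by 0.19 to 0.50 (log2) for Ndufb8. Ndufb2, another accessory subunit, had 0.27 (SE 0.12, adjusted p = 0.0758), and Ndufa5 0.22 (SE 0.11, adjusted p = 0.166). The call of Ndufa5 was lost without mouse 1, 2, 3, 5 or 7 (adjusted p = 0.308, 0.220, 0.230, 0.276 and 0.246).

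Higher on B6 were Ndufs6, a subunit of complex I (log2 fold change -0.38, SE 0.10, adjusted p = 0.00194), and Ndufv1, the flavoprotein that takes electrons from NADH (-0.17, SE 0.08, adjusted p = 0.136). The ratio of Ndufs6 ran from -0.67 in mouse 7 to -0.03 in mouse 1. The call of Ndufv1 was lost without mouse 1, 2, 5, 7 or 8 (adjusted p = 0.218, 0.223, 0.215, 0.286 and 0.202).

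Sdhc, one of the membrane anchors of complex II, was higher on B6 (450 to 1270.5 B6 and 415 to 1118 CAST counts, log2 fold change -0.28, SE 0.09, adjusted p = 0.0131). Uqcrc1, a core subunit of complex III, was higher on CAST (1015 to 2872 B6 and 1166 to 3259 CAST counts, log2 fold change 0.26, SE 0.08, adjusted p = 0.0133), by 0.16 to 0.33 in every mouse.

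Of the 5 complex V calls among 17 tested genes, 4 were toward B6, beside 16.3% of the background genes. With the replicate block 12 were called, 7 toward B6 and 5 toward CAST. Atp5j, coupling factor 6 of the stalk, had 209 to 553 B6 and 145 to 421 CAST counts and a log2 fold change of -0.48 (SE 0.10, adjusted p = 3.88e-05). Atp5k, the membrane subunit e, had -0.35 (SE 0.11, adjusted p = 0.00675), and Atp5c1, the gamma subunit of the rotor, -0.24 (SE 0.10, adjusted p = 0.0467). The fold of Atp5k was unequal among mice: its log2 ratio was near 0 in mouse 4, at -0.02, and in mouse 5, at -0.08, and between -0.31 and -0.63 in the rest.

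Atp5g2 went the other way. It had 575 to 1673 B6 and 838 to 2168 CAST counts, and a log2 fold change of 0.46 (SE 0.14, adjusted p = 0.00932), CAST higher in 7 of 7 mice. Its total was not whole in any mouse and 35.8% of its windows lie also in Gm10175, a transcribed pseudogene on chromosome 7 with 291 counts on each allele. The other genes of subunit c passed no test, with 0.00 (SE 0.09, adjusted p = 1.0) for Atp5g1 and -0.11 (SE 0.08, adjusted p = 0.425) for Atp5g3.

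**Figure D5:**
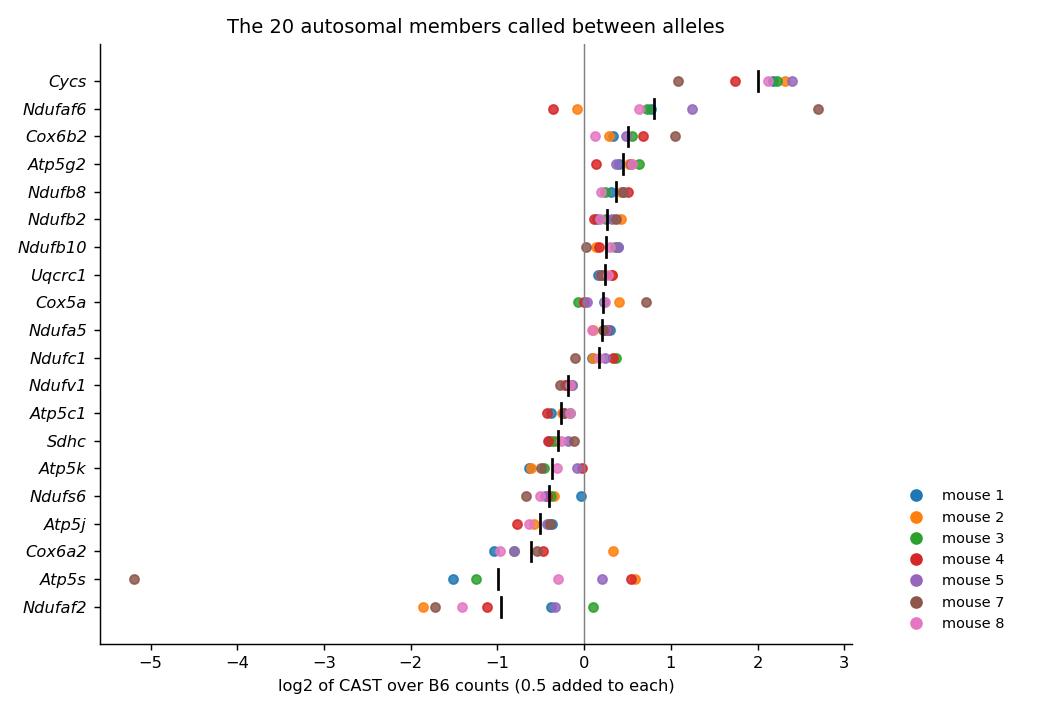
Log2 ratio of CAST to B6 counts, with 0.5 added to each (x axis), in each of 7 mice for the 20 called autosomal members, ordered by fitted fold change. Black ticks mark the mean over mice. Cycs lies at 1.08 to 2.40 in all mice, while points of Atp5s, Ndufaf2, Ndufaf6, Cox6a2, Cox5a and Ndufc1 lie on both sides of 0.

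Of the complex IV calls, Cox5a, a nuclear subunit of cytochrome c oxidase, lies at chr9:57521274-57532426 (plus strand, ENSMUSG00000000088). That is in the wider interval given for Feml2, the femur length locus for which the study was made, and before the start of its confidence interval. Its B6 counts were 212 to 808 with a median of 462, and its CAST counts 305 to 844 with a median of 556. CAST was higher in 5 mice and B6 in mouse 3, and the alleles were equal in mouse 4. The log2 fold change was 0.23 (SE 0.11, adjusted p = 0.131), and the call was lost without mouse 2, 7 or 8 (0.20, 0.16 and 0.23, adjusted p = 0.301, 0.393 and 0.224). With the replicate block the fold change was 0.23 and the call was kept (adjusted p = 0.0447). The exact two-sided permutation test over mice gave p = 0.0938. The study does not list Cox5a among its allele-specific genes of the Feml2 region. The total of Cox5a was not whole in any mouse, although none of its 75-base windows lies in another annotated transcript.

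The muscle form Cox6a2 had a log2 fold change of -0.71 (SE 0.27, adjusted p = 0.0386), B6 higher in 6 mice and CAST in mouse 2. The testis form Cox6b2 had 0.52 (SE 0.27, adjusted p = 0.167) at 29 to 95 counts per mouse, and its call was lost without mouse 2, 4, 5 or 7 (adjusted p = 0.215, 0.298, 0.232 and 0.352). The other called members had few counts or mixed directions, and Ndufc1 and Ndufaf6 are named after their values were seen. Ndufaf2 was called at -0.82 (SE 0.26, adjusted p = 0.00985) and Ndufaf6 at 0.69 (SE 0.25, adjusted p = 0.0233), with 1 and 2 mice in the other direction.

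Atp5s had 10 to 40 counts per mouse and a log2 fold change of -0.75 (SE 0.38, adjusted p = 0.150), with CAST higher in 3 mice. Its call was lost without mouse 1, 3 or 7 (adjusted p = 0.362, 0.316 and 0.528) and with the replicate block (adjusted p = 0.372). Ndufc1, a small complex I subunit, had 0.20 (SE 0.09, adjusted p = 0.114), CAST higher in 6 mice, and lost its call without mouse 3 or 4 (adjusted p = 0.272 and 0.234).

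Some isoform genes had all mice in 1 direction without passing the test across genes. Cox4i2 (log2 fold change 0.26, SE 0.17, adjusted p = 0.301), Ndufa4l2 (0.24, SE 0.20, adjusted p = 0.461) and Cox8a (0.14, SE 0.13, adjusted p = 0.517) were higher on CAST in 7 of 7 mice. With the mouse as a replicate block they passed, at adjusted p = 0.00379, 5.40e-07 and 6.07e-09. Cox7a2, Cox6a1, Atp5g3, Uqcr11 and Atp5a1 also passed with the block (adjusted p = 0.0174, 0.125, 0.155, 0.00173 and 0.0644).

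The 62 members that were neither called nor equal between alleles had log2 fold changes from -0.30 (Ndufs4, SE 0.19, adjusted p = 0.276) to 0.26 (Cox8b, SE 0.30, adjusted p = 0.637), and 55 of them lay within 0.20 of 0. In 9 of the 62, all mice had the same direction, among them Sdha, the catalytic subunit of succinate dehydrogenase (0.21, SE 0.12, adjusted p = 0.245).

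For 8 autosomal members the files hold no measure of an allele difference. Ndufa2, Ndufa9, Ndufb4, Ndufb9, Sdhd, Cyc1, Cox6b1 and Cox7a1 had the same count for both alleles in every mouse, to a tolerance of 1e-06. They make up 8.89% of the 90 members, against 2.15% of all autosomal coding genes with as many counts. Per mouse, Cyc1 had 883 ± 301 and Cox6b1 974 ± 289 counts on each allele, so these are not low counts. Totals were not whole in at least 1 mouse for 38 of the 90 members, or 42.2%, against 46.1%.

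Ndufb4, a membrane arm subunit of complex I (chr16:37647170-37654453, minus strand), shares sequence with Ndufb4c, the only 1 of the 4 pseudogenes that reached 10 counts in all mice. Ndufb4c (chr15:73809507-73809896, minus strand) matches the Ndufb4 transcript at 390 of 390 bases. It had 444 ± 130 counts, beside 325 ± 93.4 for Ndufb4, and both were equal between alleles. In Ndufb4c, 100% of the 75-base windows lie also in Ndufb4. Reads of the pair cannot be told apart where the letters are the same, so these counts do not show which gene was the higher. The pseudogenes Cox6c2, Ndufa11b and Ndufs6b had 2 counts or fewer in every mouse and were not tested. The first 75 coding bases of Ndufb4, the letters also of chr15:73809822-73809896, are shown for that reason.
Ndufb4 and Ndufb4c: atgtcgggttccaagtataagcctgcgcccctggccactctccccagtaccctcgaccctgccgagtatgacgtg

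The 3 X-linked members differed widely in the share of their counts on B6, although a male carries a single X. Ndufb11, a membrane arm subunit of complex I, had 99.9% of its counts on B6, with at least 99.85% in each mouse. Ndufa1, another complex I subunit, had 50.0% in every mouse, with equal counts for both alleles. Cox7b, of complex IV, had 54.3% ± 2.91 (SD, n = 7), from 50.0% in mouse 4 to 58.5%. Of 424 X-linked coding genes with that many counts, the median B6 share was 99.1%; 322 had over 95%, 35 under 60% and 18 equal alleles in every mouse. Ndufa1 and Cox7b thus lie among these 35, where the allele columns do not follow the single X of the animals.

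The genes of related functions were described in the same way, beside the 33.9% of background genes called (17.6% toward CAST, 16.3% toward B6). Of 21 complex IV assembly genes, 2 were called toward CAST and 5 toward B6, among them Coa4 (log2 fold change 0.60, SE 0.15, adjusted p = 0.000521) and Cox18 (-0.51, SE 0.17, adjusted p = 0.0131). Of 20 other assembly genes, 2 were called toward CAST and 1 toward B6, with Lyrm7 at 0.89 (SE 0.24, adjusted p = 0.00162). Of 10 genes for mitochondrial DNA upkeep and transcription, 3 were called, all toward CAST: Ssbp1, Mterf4 and Twnk. Of 8 nuclear regulators 1 was called, Gabpa, an ETS factor (0.29, SE 0.12, adjusted p = 0.0645). Of 13 genes of the tricarboxylic acid cycle, 2 were called toward CAST and 2 toward B6, of which Idh3g is X-linked. The median log2 fold changes of these lists lay between -0.05 and 0.02, beside 0.02 over the autosomal coding members. The summed level of each list was lowest in mouse 4.

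Known motifs were found in some promoters of the members, and no test of enrichment was run. RefSeq promoter sequences (250 bases before to 50 after the RefSeq gene start, GRCm38) were matched for 77 of the 95 nuclear coding members. The motif of nuclear respiratory factor NRF1, searched as GCGCATGCG on both strands, was in 11 of the 77 (14.3%), against 2.61% of 17492 coding genes. The YY1 motif AAGATGGC was in 11 (14.3% against 3.57%), the ETS motif CCGGAAG, bound by GABP, in 18 (23.4% against 12.9%), and the motif TCAAGGTCA of the oestrogen-related receptors in 2 (2.60% against 0.377%). None of these 4 motifs holds another. A match is no evidence of binding.

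Of the 11 members with the NRF1 motif, Cycs, Atp5g2, Uqcrc1 and Atp5k were called between alleles with the same direction in all mice. The first 3 were higher on CAST and Atp5k on B6. Atp5l, Cox6a1, Ndufa8, Ndufa11, Ndufaf4, Ndufaf5 and Uqcr11 also had the motif and were not called. Among all members tested, 15.6% were called with the same direction in all mice. Whether the motif goes with the calls was not tested. Stretches of 59 bases are shown for the members in which the motif lay before the RefSeq start and outside annotated UTRs, read along the gene, with the motif in capitals. In Cycs it is on the opposite strand. They come from the B6 reference (chr6:50566597-50566655 and chr5:115349087-115349145, minus strand, and chr4:24897945-24898003, plus strand), and CAST letters were not analysed here.
Cycs: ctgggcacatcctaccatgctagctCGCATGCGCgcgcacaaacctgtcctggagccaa
Cox6a1: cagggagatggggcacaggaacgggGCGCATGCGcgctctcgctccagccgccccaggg
Ndufaf4: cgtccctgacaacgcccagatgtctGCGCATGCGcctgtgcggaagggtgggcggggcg
The motif began 61 bases before the RefSeq start of Cycs, 162 before that of Cox6a1 and 113 before that of Ndufaf4. Cox6a1 (log2 fold change -0.11, SE 0.12, adjusted p = 0.637) was not called between alleles, nor was Ndufaf4 (-0.02).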

How the data were processed

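Growth plate RNA of the 7 mice was sequenced as 75-base read pairs (TruSeq Stranded Total RNA, Ribo-Zero Gold, NextSeq 500). The authors aligned reads with Bowtie to B6 and CAST transcriptomes (mm10) and deposited EMASE estimated counts per gene for B6, CAST and their sum. EMASE divides ambiguous reads among alleles and genes, so that counts need not be whole and an allele difference can be diluted.

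Members and lists were chosen with earlier results of these data known. Values were rounded to whole numbers and fitted over the 20239 genes with a count for at least 1 allele in every mouse with edgeR 4.0.16 (R 4.3.3; TMM, glmFit, glmLRT, allele as the term), with Benjamini-Hochberg adjustment over all of them and calls at 0.20. Single genes were tested by exact sign flips of log2 ratios with a pseudocount of 0.5. Both alleles of a mouse come from 1 animal and are paired by design: deviations from the allele means correlated within each mouse by 0.51 to 0.72 over 3690 genes with at least 500 counts, but by -0.06 to 0.19 over 15021 genes with at least 10. CPM used all counts. Shared sequence was counted in windows of 75 bases over M21 transcripts. Intervals were not given because divided counts are not independent reads. The likelihood-ratio test had no term for the mouse, so its p-values do not use this pairing and rest on the spread of all allele columns. Only p-values of the sign flips and of the fits with the replicate block use the differences within each of these 7 animals.

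Named were all mitochondrial and X-linked members, Cox5a, tissue isoform pairs, the 8 called members per direction with the smallest p and the same direction in all mice, members with equal alleles and the highest and lowest per complex. Alternatives were the quasi-likelihood test, DESeq2 1.42.0, other scalings and filters, the replicate block and leaving out each mouse.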

Additional observations from a re-analysis of the deposited data

Results flagged for a closer look

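Among 93 sets of 7 values (log2 allele ratios and CPM of named or called members, and both shares of counts), 6 had a highest or lowest mouse whose distance from the nearest other mouse, as a part of the whole range, was above Dixon's critical value for 7. Chance flags about 1 in 20 sets, or 4.65 of 93.

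Mouse 4 had 34.9 CPM of Ndufa4, against 49.5 to 59.4 in the other mice, and 84.3 CPM of Atp5c1, against 117 to 138. Mouse 1 had 24.8 CPM of Cox6a2, against 6.76 to 14.6. The log2 ratio of Cox6a2 was 0.33 in mouse 2 and -1.04 to -0.48 in the others. That of Cox4i1 was -0.28 in mouse 3, where the others lay between -0.02 and 0.05. That of Atp5s was -5.19 in mouse 7, where 0.00570 of 18 counts were on CAST, and -1.51 to 0.58 in the others.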

How the results depend on the processing

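The counts of 11 members called toward CAST and 9 toward B6 stayed within 1.5 times under the quasi-likelihood test, DESeq2 and other scalings and filters, and ranged from 8 to 13 and from 7 to 10 without each mouse. With the replicate block they were 29 and 19, and with the block and the quasi-likelihood test 28 and 15. With genes of whole totals alone, which leaves 52 members, they were 5 and 5. At an adjusted p below 0.05, 6 were called toward CAST and 7 toward B6. Without members whose alleles were equal or whose totals were never whole, chosen after seeing the data, 7 were called toward CAST and 9 toward B6.

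All 20 calls were also made by DESeq2 and 19 by the block. No called member changed sign. The fold changes of Cox4i1, Atp5g1, Ndufa4 and Uqcrq, which were not called and lay near 0, changed sign under some alternatives. Over protein-coding counts the mitochondrial share was 0.491% and the nuclear share 0.744%, and without Rn7s1, Rn7s2 and Rn7sk the nuclear share was 0.689%. Without each mouse, the shares ranged from 0.345% to 0.390% and from 0.543% to 0.559%.

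Without the 2 farthest mice, relations across mice were r = 0.82 for the muscle forms (exact permutation p = 0.0750), -0.70 for Rn7s RNAs against mitochondrial members (p = 0.183) and 0.63 for Ndufa4l2 and Cox4i2 (p = 0.258). Over protein-coding counts, r of the Rn7s RNAs was -0.66 (exact permutation p = 0.112). The causes were not tested. Depth limits Atp5s (10 to 40 counts per mouse) and Cox6b2 (29 to 95).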
